A study of Homo sapiens with 3 samples.

Results

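The 59 genes described here encode the Wnt ligands, their receptors, secreted inhibitors and intracellular effectors, and the Hedgehog ligands, receptors and GLI factors. They were chosen by name from the pathways, not by their binding, and every row of the deposited MEIS1 peak annotations that carried one of these names was taken. Of the 59 genes, 16 had at least 1 MEIS1 peak in either cell line. They accounted for 14 of 5968 peaks in LV-MEIS1 cells and for 9 of 2047 peaks in HOXB13ko-LV-MEIS1 cells.

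Both lines derive from CWR22Rv1, an established human prostate carcinoma line grown from a xenograft that relapsed after castration. LV-MEIS1 cells carry a lentiviral vector that expresses MEIS1 and keep their endogenous HOXB13, and HOXB13ko-LV-MEIS1 cells express MEIS1 from the same kind of vector after CRISPR knockout of HOXB13. The knockout line was a pool of 6 clones, and all cultures were grown in puromycin. The comparison asks where MEIS1, a homeodomain protein that pairs with HOX proteins on DNA, was found when HOXB13 was present or absent. Both groups express MEIS1 from a vector, so binding of MEIS1 at its natural level was not measured. Immunoprecipitations of a line were pooled before peaks were called, 3 for LV-MEIS1 and 2 for HOXB13ko-LV-MEIS1 cells. The pools held 202428594 and 105763683 tags, and both were compared with 1 input of 39102495 tags from CWR22Rv1 cells. With 1 peak list a line there was no replicate error, no test between the lines was possible, and the knockout cannot be told apart from the depth of the pool or from other differences between these 2 lines. A gene without a peak is a gene to which no summit below the authors' q-value limit of 0.01 was assigned. Gene expression and the loss of HOXB13 were not measured by these files.

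Wnt ligands are secreted lipid-modified proteins that bind Frizzled receptors with the co-receptors LRP5 and LRP6, or receptors such as ROR2. In the canonical branch this stops the destruction complex of APC and AXIN from degrading beta-catenin, which then joins TCF/LEF factors at target genes. Hedgehog ligands bind Patched and so release Smoothened, which activates the GLI transcription factors. Both pathways direct budding and branching of the developing prostate and are studied in prostate cancer.

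The sequences under the summits are given first, since the words and repeats described later are seen in them. The windows of 101 bases shown first are centred on summits in LV-MEIS1 cells and read 5′ to 3′ on the plus strand of hg38, with the MEIS1 core TGACA, or TGTCA where it lies on the minus strand, in capitals. GLI3, SFRP2, FZD8, WNT10A and FZD5 are shown for the highest fold enrichment among the 59 genes, and TCF7L2 for the only promoter peak, its window being cut to 54 bases at the start site. WNT2, WNT11, ROR2 and SHH were added after the values were seen, WNT2 for a pair of cores beside its summit and the others as the genes with peaks in both lines.
GLI3, chr7:42093610-42093710: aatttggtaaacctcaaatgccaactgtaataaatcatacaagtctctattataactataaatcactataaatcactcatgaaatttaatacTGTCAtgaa
SFRP2, chr4:153794111-153794211: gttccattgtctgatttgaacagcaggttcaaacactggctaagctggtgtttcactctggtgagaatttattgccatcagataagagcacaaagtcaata
FZD8, chr10:35690605-35690705: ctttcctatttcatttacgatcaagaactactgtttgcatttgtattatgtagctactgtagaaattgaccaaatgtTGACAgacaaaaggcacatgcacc
WNT10A, chr2:218892782-218892882: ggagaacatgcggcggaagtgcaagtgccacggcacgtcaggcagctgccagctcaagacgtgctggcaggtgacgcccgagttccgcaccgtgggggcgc
FZD5, chr2:207847970-207848070: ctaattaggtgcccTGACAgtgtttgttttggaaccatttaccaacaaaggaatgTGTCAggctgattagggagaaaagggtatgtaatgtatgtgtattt
TCF7L2, chr10:112950198-112950251: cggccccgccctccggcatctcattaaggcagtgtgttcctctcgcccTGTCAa
WNT2, chr7:117364835-117364935: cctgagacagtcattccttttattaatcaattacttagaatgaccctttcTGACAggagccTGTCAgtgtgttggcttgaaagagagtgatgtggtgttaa
WNT11, chr11:76147503-76147603: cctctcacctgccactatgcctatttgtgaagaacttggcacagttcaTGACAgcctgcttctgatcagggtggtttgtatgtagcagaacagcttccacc
ROR2, chr9:91838308-91838408: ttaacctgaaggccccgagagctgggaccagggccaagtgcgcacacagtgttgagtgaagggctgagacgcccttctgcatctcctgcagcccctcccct
SHH, chr7:155751941-155752041: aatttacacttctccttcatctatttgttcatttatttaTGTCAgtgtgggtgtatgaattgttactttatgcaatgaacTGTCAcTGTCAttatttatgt

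The windows from HOXB13ko-LV-MEIS1 cells, drawn in the same way, held the core only at ROR2. The first 3 are among the 5 peaks with the highest fold enrichment, the others being at LGR5 and FZD6 and not printed, and the ROR2 and SHH windows were added after the values were seen. The first WNT11 window begins inside a tRNA gene and the SHH windows are made of repeated units.
WNT11, chr11:76235838-76235938: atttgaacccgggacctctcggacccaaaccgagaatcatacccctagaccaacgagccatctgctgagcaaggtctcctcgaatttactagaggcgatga
WNT11, chr11:76048942-76049042: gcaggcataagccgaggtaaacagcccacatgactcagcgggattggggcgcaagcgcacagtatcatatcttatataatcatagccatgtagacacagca
SFRP4, chr7:37916311-37916411: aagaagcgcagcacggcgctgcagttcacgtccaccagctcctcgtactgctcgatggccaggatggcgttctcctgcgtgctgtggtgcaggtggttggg
ROR2, chr9:91930478-91930578: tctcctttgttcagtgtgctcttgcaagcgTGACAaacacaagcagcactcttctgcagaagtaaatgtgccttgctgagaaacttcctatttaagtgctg
SHH, chr7:155792003-155792103: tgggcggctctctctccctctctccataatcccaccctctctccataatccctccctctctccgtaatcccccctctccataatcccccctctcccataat
SHH, chr7:155817653-155817753: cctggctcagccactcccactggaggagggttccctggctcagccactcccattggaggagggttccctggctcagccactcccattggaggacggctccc

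In LV-MEIS1 cells 12 of the 59 genes had a peak (20.3%, 95% Wilson interval 12.04% to 32.3%), beside 15.1% of 20037 protein-coding genes. In HOXB13ko-LV-MEIS1 cells 7 genes did (11.9%, 5.87% to 22.5%), beside 5.79%. The genes with a peak in both lists were WNT11, ROR2 and SHH, 3 of 59 (5.08%, 1.74% to 13.9%), beside 2.29% of all protein-coding genes. The background lay within the interval of the first and the last of these shares and just below that of the knockout list. Intervals cover counting error only. WNT2, WNT10A, WNT16, FZD5, FZD8, SFRP2, TCF7L2, PTCH1 and GLI3 had peaks in LV-MEIS1 cells alone, 9 genes (15.3%, 8.24% to 26.5%), beside 12.8% of all protein-coding genes. FZD6, SFRP4, LGR5 and GLI1 had them in HOXB13ko-LV-MEIS1 cells alone, 4 genes (6.78%, 2.67% to 16.2%), beside 3.5%. The other 43 genes had none.

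**Figure D1:**
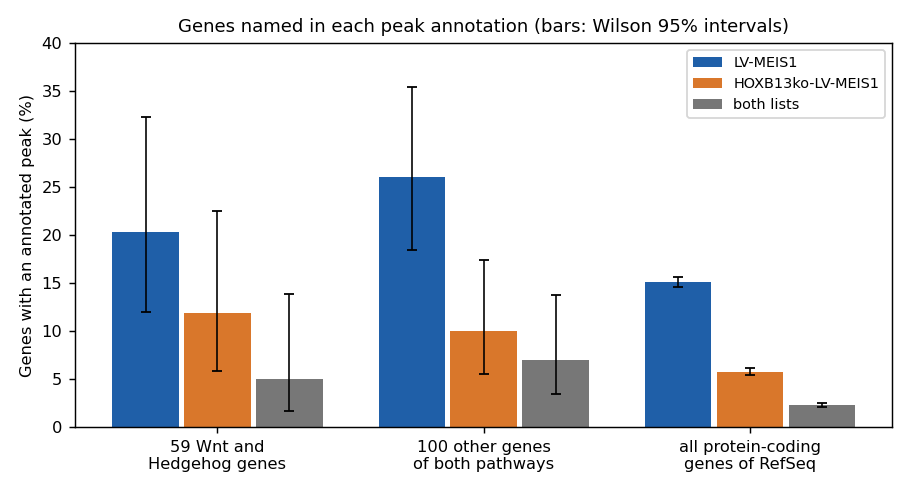
Share of genes named in the peak annotation of each line, in percent, for the 59 Wnt and Hedgehog genes, 100 other genes of both pathways and all protein-coding genes, with Wilson 95% intervals as error bars. Among the 59 genes the shares were 20.3% in LV-MEIS1 cells, 11.9% in HOXB13ko-LV-MEIS1 cells and 5.08% in both.

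Even where a gene was named in both lists, the peaks were at different places. None of the 14 LV-MEIS1 peaks overlapped a HOXB13ko-LV-MEIS1 peak by 1 bp or more (0 of 14, upper Wilson limit 21.5%), beside 7.66% of all LV-MEIS1 peaks. None of the 9 HOXB13ko-LV-MEIS1 peaks overlapped an LV-MEIS1 peak (0 of 9, upper limit 29.9%), beside 22.3% of all peaks of that list. Both limits lie above the shares of the whole lists, so 14 and 9 peaks are too few to set these genes apart. At the genes with peaks in both lists the nearest summits were 88335 bp apart for WNT11, 92170 bp for ROR2 and 40062 bp for SHH. The smallest distance from any of the 23 summits to a peak of the other list was 25410 bp, from the GLI1 summit in knockout cells to a peak named for MARS.

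**Figure D2:**
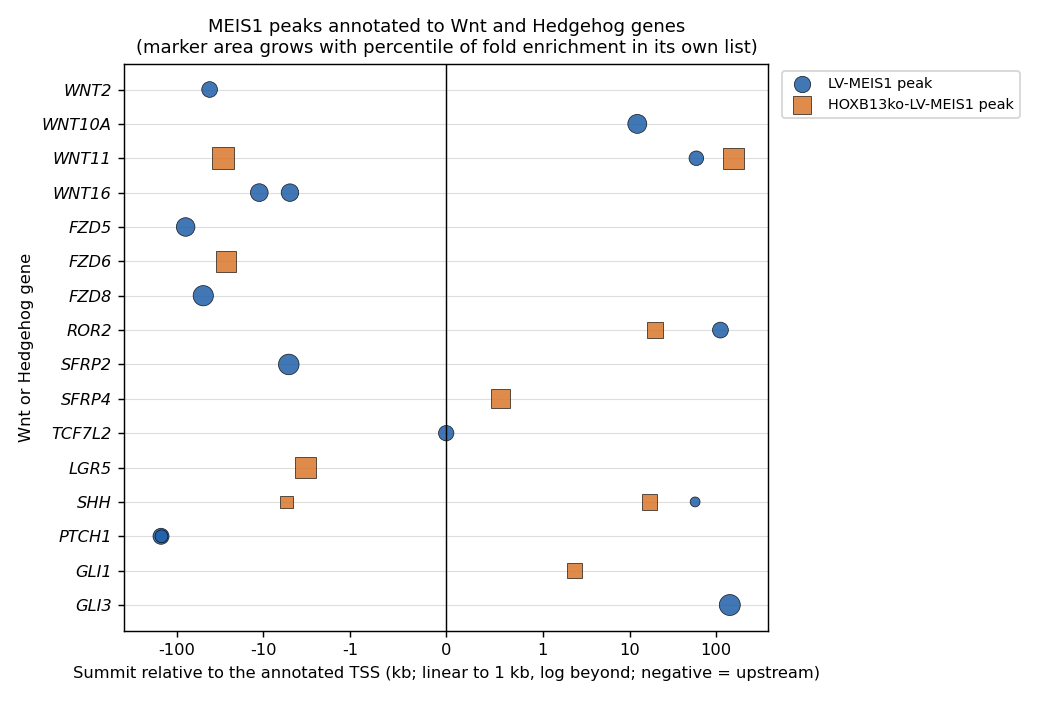
Each peak of the 16 genes by the distance of its summit from the annotated transcription start site, in kb on an axis that is linear to 1 kb and logarithmic beyond. Circles are LV-MEIS1 peaks, squares are HOXB13ko-LV-MEIS1 peaks, and marker area grows with the percentile of fold enrichment in its own list; only TCF7L2 had a peak at its start site, at -2 bp.

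Among the 17 Wnt ligands, 4 had peaks in LV-MEIS1 cells and 1 of these, WNT11, also in knockout cells. WNT16, a ligand known from bone and stroma, had a pair of LV-MEIS1 peaks upstream of its start site, at -11125 bp with 6.61-fold enrichment over local background and at -4926 bp with 6.53-fold enrichment. The nearer peak lay in HERVH-int, the internal part of an endogenous retrovirus. At WNT10A, which acts in hair and tooth development, the summit lay in the coding part of exon 4 of 4, 12299 bp into the gene, with 7.29-fold enrichment (q = 1.94e-18). The WNT2 peak, at -41596 bp and 5.86-fold, was in intron 12 of 12 of the neighbouring gene ASZ1, with TGACA cores 2 bp and 13 bp from the summit. These ranks were moderate, from the 42.9 percentile of fold enrichment in the list for WNT2 to the 69.5 percentile for WNT10A.

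WNT11, a ligand of the branch that does not use beta-catenin, was the only ligand with peaks in both lists. In LV-MEIS1 cells it had 1 peak, 58977 bp downstream of the start site in a copy of a ribosomal RNA repeat (LSU-rRNA_Hsa), with 5.56-fold enrichment (34.8 percentile, q = 2.35e-08) and TGACA at the summit. In knockout cells it had 2 peaks. At -29358 bp, chr11:76235374-76236045, enrichment was 11.99-fold, rank 65 of 2047 (96.8 percentile, q = 1.37e-33), the highest of the 9. This peak covered the proline tRNA genes TRP-AGG2-4 (76235513 to 76235584) and TRP-TGG2-1 (76235825 to 76235896), and its summit lay inside the second. The other knockout peak, at 157538 bp in intron 12 of 14 of UVRAG and in the retroviral repeat LTR18C, had 8.32-fold enrichment (84.4 percentile). Neither knockout peak had TGACA within 50 bp of its summit. The name WNT11 was thus given to 3 places spread over both sides of the gene, and none was within 10 kb of the start site.

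The other 13 ligands, WNT1, WNT2B, WNT3, WNT3A, WNT4, WNT5A, WNT5B, WNT6, WNT7A, WNT7B, WNT8B, WNT9A and WNT10B, were named in neither annotation. For WNT3A, a ligand of the beta-catenin branch, this reflects the naming by nearest start site. Its last exon held a peak in each list, both named for ARF1. The LV-MEIS1 peak, chr1:228059596-228059873, had its summit in the 3′ UTR (5.31-fold, 28.2 percentile), and the knockout summit lay in the coding part of exon 4 of 4 (4.23-fold, 15.1 percentile). The summits were 294 bp apart and the peaks did not overlap, with 183 bp between them. Neither had TGACA within 50 bp of its summit.

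Of the 15 receptors and co-receptors, 3 had peaks in LV-MEIS1 cells and 2 in knockout cells. Frizzled proteins are the membrane-spanning receptors of Wnt ligands. The FZD8 peak in LV-MEIS1 cells, intergenic at -49221 bp, had 8.51-fold enrichment (81.5 percentile, q = 5.06e-20). FZD5 had a peak at -78601 bp, in intron 7 of 7 of PLEKHM3, with 7.06-fold enrichment (66.0 percentile) and 2 cores within 50 bp. In knockout cells neither gene had a peak, and FZD6 had an intergenic peak at -26909 bp with 8.04-fold enrichment (82.4 percentile) in the internal part of an MSTA retrovirus. The peak nearest to FZD4, 33113 bp from the gene and named for LOC100506368, was an LV-MEIS1 peak of 9.47-fold enrichment (88.2 percentile) with TGACA. No peak was annotated to FZD1, FZD2, FZD3, FZD4, FZD7, FZD9, FZD10, LRP5, LRP6, ROR1 or RYK.

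ROR2, a receptor tyrosine kinase for WNT5A, had peaks in intron 1 of 8 in both lines. The LV-MEIS1 peak lay 111804 bp downstream of the start site (5.91-fold, 43.8 percentile, q = 4.94e-10) and had no TGACA within 50 bp. The knockout peak lay at 19634 bp in the retroviral repeat LTR10B2 (5.70-fold, 46.7 percentile, q = 2.31e-08), with TGACA 18 bp from the summit. At ROR2 the core was therefore at the knockout summit and not at the LV-MEIS1 summit, the reverse of WNT11 and SHH. A further LV-MEIS1 peak in intron 5 of 8 was named for MIR3910-2 (6.19-fold, 50.4 percentile) and had the core.

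The secreted inhibitors bind Wnt ligands or block LRP co-receptors, and 2 of the 7 had a peak. SFRP2, a soluble Frizzled-related protein, had an LV-MEIS1 peak 5085 bp upstream with 8.93-fold enrichment (84.5 percentile, q = 1.84e-20), without TGACA within 50 bp. SFRP4, a relative with the same kind of ligand-binding domain, had a knockout peak 562 bp into the gene, in the coding part of exon 1 of 6, with 6.62-fold enrichment (66.8 percentile, q = 1.44e-13). It was the knockout peak nearest to a start site among the 9 and lay 324905 bp from the nearest LV-MEIS1 summit. DKK1, DKK2, DKK3, SFRP1 and SFRP5 had no peak of their own name.

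The 4 genes of beta-catenin and its destruction complex, CTNNB1, APC, AXIN1 and AXIN2, had no peak in either list. Of the 4 TCF/LEF genes, only TCF7L2, the main partner of beta-catenin in many epithelia, had a peak. Over all protein-coding genes the shares with a peak were 15.1% in LV-MEIS1 and 5.79% in knockout cells. Groups of 4 genes are too small to be set apart from these shares. The TCF7L2 peak was in LV-MEIS1 cells at chr10:112950149-112950376, annotated as promoter, with the summit 2 bp upstream of the start site, 5.76-fold enrichment (40.2 percentile, q = 3.49e-09) and TGTCA centred on the summit. The nearest knockout summit was 7901065 bp away. LEF1 had an LV-MEIS1 peak in intron 8 of 11 that was named for HADH (7.05-fold, 65.7 percentile), and TCF7 and TCF7L1 had none of their own name.

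LGR5, the R-spondin receptor known as a stem cell marker of the intestine, was the strongest case found in knockout cells alone. Its peak at -3291 bp had 9.65-fold enrichment (91.8 percentile, q = 1.65e-24) and lay, like that of FZD6, in MSTA-int. The authors' annotation called it intergenic, and GENCODE places the summit in an intron of the neighbouring gene TSPAN8. MSTA-int lay at the summit of 54 of 2047 knockout peaks (2.64%) and of 0 of 5968 LV-MEIS1 peaks. An LV-MEIS1 peak also lay near LGR5, 18927 bp from the gene on its other side, with 9.95-fold enrichment (90.3 percentile), and was named for THAP2. The R-spondin genes RSPO2 and RSPO3 had no peak.

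**Figure D3:**
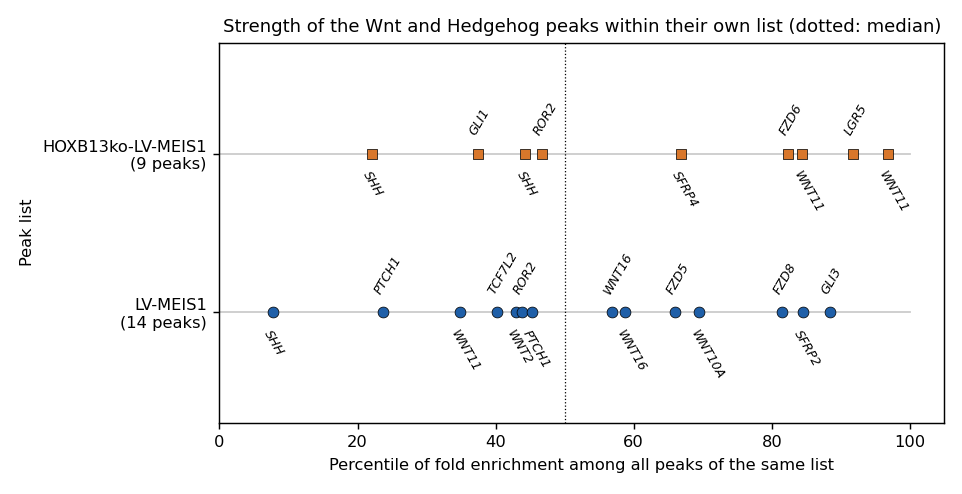
Percentile of fold enrichment of each peak among all peaks of its own list, with the gene name beside each point and the median as a dotted line. LV-MEIS1 peaks ran from 7.7 for SHH to 88.4 for GLI3, and HOXB13ko-LV-MEIS1 peaks from 22.1 for SHH to 96.8 for WNT11.

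Among the 3 Hedgehog ligands only SHH, which directs prostate bud outgrowth, had peaks. In LV-MEIS1 cells its single peak, in an L1MC4 repeat in intron 14 of 17 of RBM33, lay at 57081 bp with 4.22-fold enrichment (7.7 percentile, q = 4.98e-06), the weakest of the 14. Its window nevertheless held 3 TGACA cores and 4 copies of ATAAA, the HOXB13 core, more of these words together than any other of the 23 peaks. In knockout cells SHH had 2 intergenic peaks, at 17019 bp (5.59-fold, 44.3 percentile, q = 1.51e-09) and at -5430 bp (4.62-fold, 22.1 percentile, q = 1.67e-05). Both lay in tandem repeats. A stretch of 30 bases occurred again 159 bp further along the first window, and a stretch of 106 bases occurred again 99 bp along the other. IHH and DHH had no peak of their own name.

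PTCH1, the Hedgehog receptor and itself a target of the pathway, had 2 LV-MEIS1 peaks close together and far upstream, at -151086 bp (5.96-fold, 45.2 percentile) and -149261 bp (5.11-fold, 23.7 percentile). Neither had TGACA within 50 bp, and the second had 4 copies of ATAAA. The receptor component SMO and the ligand-binding protein HHIP had no peak. GLI3, the main repressor among the GLI factors, had the highest fold enrichment of the 14 LV-MEIS1 peaks, 9.52-fold (88.4 percentile, q = 3.72e-24), in its intron 3 of 14 and 143359 bp from the start site. The window was 25.7% G and C, with TGACA 44 bp from the summit and 3 copies of ATAAA. GLI1, an activator whose transcription reports pathway activity, had a knockout peak in intron 1 of 9 at 2326 bp (5.28-fold, 37.4 percentile, q = 5.31e-07). An LV-MEIS1 peak 15619 bp from GLI1 was at the promoter of MARS. GLI2 had no peak in either list.

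LV-MEIS1 peaks of these genes lay farther from start sites than the list as a whole. Their median distance was 53151 bp (95% interval of the median 5085 to 143359), beside 23121 bp for all 5968 peaks. The interval includes the median of the list. Only 1 of 14 was at a promoter (7.14%, 1.27% to 31.5%), beside 20.2% of the list, 7 were intergenic (50%, beside 37.0%), 5 intronic and 1 exonic. In knockout cells the median was 17019 bp (2326 to 29358), beside 10517 bp for the list. With only the nearest peak of each of the 7 genes counted it was 5430 bp. The list was not reduced in that way, so 5430 bp has no like value beside it. No knockout peak was at a promoter (0 of 9, upper limit 29.9%), beside 24.5% of the list, 5 were intergenic, 3 intronic and 1 exonic. Fold enrichment was near the middle of the list for LV-MEIS1 peaks (median 51.1 percentile) and somewhat higher for knockout peaks (66.8 percentile), each spread over most of the range.

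The word TGACA was within 50 bp of the summit in 7 of 14 LV-MEIS1 peaks (50%, 26.8% to 73.2%) and in 5 of 28 windows of the same size centred 500 bp to either side (17.9%). Over the whole list the shares were 56.1% and 18.9%. In knockout cells 1 of 9 summits had it (11.1%, 1.99% to 43.5%) and 2 of 18 flanking windows (11.1%), beside 16.8% and 14.4% over that list. ATAAA was at 7 of 14 LV-MEIS1 summits (50%), beside 45.8% of the list, and at 0 of 9 knockout summits (upper limit 29.9%), beside 13.0%. In the flanking windows it was in 7 of 28 for LV-MEIS1 peaks (25%), beside 32.9% over the list. For knockout peaks it was in 5 of 18 flanking windows (27.8%), beside 24.1%. Both words were thus more frequent at the LV-MEIS1 summits of these genes, the direction seen over the lists. For each word the intervals of the lines overlapped, and the difference between the lines was not tested in these few peaks. Base composition moved with the lists: the median share of G and C in the 101-base windows was 40.6% for the LV-MEIS1 peaks and 53.5% for the knockout peaks of these genes, beside 42.6% and 55.4% over the lists, and its part in the word counts was not tested. CTTTGAT, the core bound by TCF/LEF factors, was at 0 of 14 and 0 of 9 summits, beside 2.08% and 0.391% of the lists. CACCCA, part of the GLI site, was at 1 and 0, beside 5.53% and 5.72%. A difference from shares this small was not detectable with so few summits. All words were searched on both strands.

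**Figure D4:**
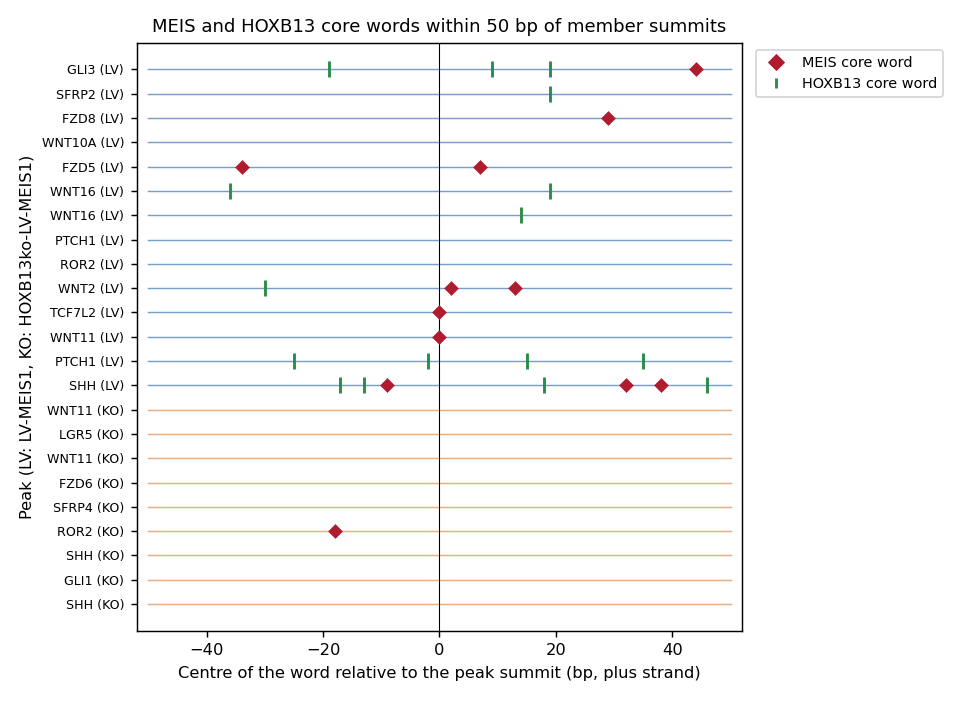
Position of the MEIS core word (diamonds) and of the HOXB13 core word (bars) within 50 bp of each of the 23 summits, in bp along the plus strand. The MEIS word occurred at 7 of 14 LV-MEIS1 summits, on the summit itself for TCF7L2 and WNT11, and at 1 of 9 HOXB13ko-LV-MEIS1 summits, that of ROR2.

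Repeated sequence was common under the knockout peaks. Of the 9, 4 lay in retroviral long terminal repeat elements (WNT11, LGR5, FZD6 and ROR2), 1 over tRNA genes (WNT11) and 2 in tandem repeats (SHH), so that SFRP4 and GLI1 alone were outside these classes. That is 7 of 9 (77.8%, 45.3% to 93.7%), beside 47.8% of the whole knockout list. Among the 14 LV-MEIS1 peaks only that of WNT16 in HERVH-int was of these classes (7.14%, 1.27% to 31.5%), beside 8.88% of the LV-MEIS1 list. The grouping was made after the sequences were seen and leaves out the L1MC4 repeat at SHH and the ribosomal RNA repeat at WNT11. Over annotated repeats of any class the contrast was smaller, with 3 of 14 LV-MEIS1 peaks (21.4%, 7.57% to 47.6%), beside 19.5% of that list, and 4 of 9 knockout peaks (44.4%, 18.9% to 73.3%), beside 40.5%. Tandem repeats were counted as windows of 401 bases with a stretch of 20 or more bases that occurs again, which held for 15.4% of knockout and 4.59% of LV-MEIS1 peaks. Peaks over RefSeq tRNA genes made up 8.60% of the knockout list and 0.335% of the LV-MEIS1 list. Reads of 50 bp can be placed less surely in such sequence, and its part in the calls was not tested.

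Naming by nearest start site hides some neighbours of these genes. Within 50 kb of the gene bodies, 20 of the 59 genes had an LV-MEIS1 peak under any name (33.9%, 23.1% to 46.6%), beside 33.8% of all protein-coding genes, and 11 a knockout peak (18.6%, 10.7% to 30.4%), beside 16.2%. Both shares were close to the background. In LV-MEIS1 cells 10 of the 20, WNT2B, WNT3A, WNT5B, WNT6, FZD4, DKK1, APC, LEF1, LGR5 and GLI1, had no such peak under their own name. The peak at WNT6, 18599 bp away, was the WNT10A peak, and that at APC was at the promoter of SRP19. In knockout cells the 4 genes of this kind were WNT3A, LRP5, SFRP5 and DHH. The peaks at LRP5 and SFRP5 were at the promoters of PPP6R3 and ZFYVE27.

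The median stretch of genome nearer to their start site than to that of another protein-coding gene was 178414 bp for the 59 genes, beside 60690 bp for all protein-coding genes, and it was 265958 bp for the 16 genes with a peak and 134309 bp for the 43 without. The part of this length in the share of genes with a peak was not tested. Measured from the start site instead, the median distance to the nearest summit was 133654 bp in LV-MEIS1 cells, beside 147340 bp for all protein-coding genes, and 484513 bp in knockout cells, beside 461107 bp. The nearest summit was closer in LV-MEIS1 than in knockout cells for 37 of the 59 genes (62.7%, 49.95% to 73.9%), beside 74.5% of all protein-coding genes. That background lay just above the interval. The LV-MEIS1 list held 5968 peaks and the knockout list 2047, and the part of this in both shares was not tested. Within 10 kb of a start site, 3 of the 59 had an LV-MEIS1 summit (5.08%), beside 11.2% of all genes, and 4 a knockout summit (6.78%), beside 4.68%. These were SFRP2, WNT16 and TCF7L2 in LV-MEIS1 cells and SFRP4, LGR5, SHH and GLI1 in knockout cells. No gene was in both groups, and with 3 and 4 genes no conclusion is drawn from this. At any distance, 39.5% of all protein-coding genes with a knockout peak also had an LV-MEIS1 peak. The share of all genes with such a summit in both lists was not computed.

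**Figure D5:**
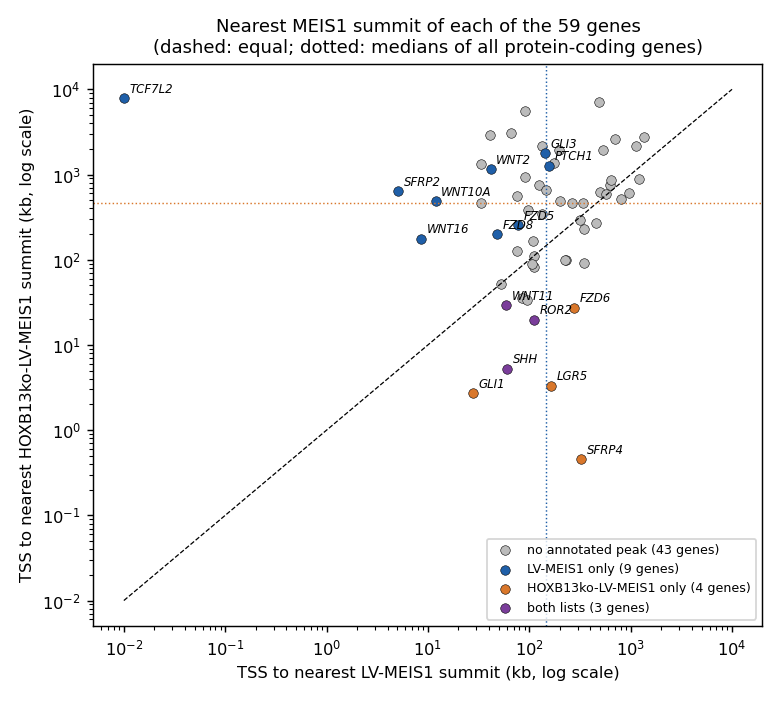
Distance from the GENCODE start site of each of the 59 genes to the nearest LV-MEIS1 summit (x axis) and the nearest HOXB13ko-LV-MEIS1 summit (y axis), in kb on logarithmic axes, with distances under 10 bp drawn at 10 bp. Dotted lines are the medians of all protein-coding genes, 147340 bp and 461107 bp, and 37 of 59 points (62.7%) lie above the line of equal distance, beside 74.5% of all protein-coding genes.

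Of 100 other genes of both pathways, 26 had a peak in LV-MEIS1 cells (26%, 18.4% to 35.4%), beside 15.1% of all protein-coding genes. A peak in knockout cells was found for 10 (10%, 5.52% to 17.4%), beside 5.79%, and in both lists for 7 (7%, 3.43% to 13.7%), beside 2.29%. The background lay below the interval in LV-MEIS1 cells and in both lists. The median stretch of genome nearest to their start sites was 96683 bp, beside 60690 bp for all protein-coding genes. Its part in these shares was not tested. Of the 7 genes, 4 had an overlapping pair of peaks, beside 56.4% of all 459 protein-coding genes with peaks in both lists. They were TLE2 and TLE3, Groucho-type co-repressors that bind TCF/LEF factors, CCND1, the cell cycle gene activated by Wnt signals in several tissues, and TULP3, which carries receptors into the primary cilium. The pair at TLE3 lay at -1868 bp in LV-MEIS1 cells (11.1-fold, 94.5 percentile) and at -1826 bp in knockout cells (7.09-fold, 73.5 percentile), both with TGACA. The pair at TLE2 was in intron 2, also with the core in both, with 7.97-fold enrichment in LV-MEIS1 cells (77.0 percentile) and 5.45-fold in knockout cells (40.8 percentile). At CCND1 the pair lay at the end of the gene. The pair named for TULP3 lay upstream of its annotated start site, at -5377 bp in LV-MEIS1 cells. The annotation gave that place as exon 2 of 3 of the transcript NM_001252499, without naming its gene. FBXW11, a ubiquitin ligase subunit that recognizes beta-catenin, HHIPL2, a relative of HHIP, and SPOP, an adaptor for GLI degradation that is often mutated in prostate cancer, had peaks in both lists that did not overlap. Whether the overlap differs between the 59 and the 100 genes was not tested.

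Promoter peaks were also found among these other genes, 8 genes in LV-MEIS1 cells and 1 in knockout cells. These genes had 36 peaks in LV-MEIS1 and 14 in knockout cells, and promoter peaks made up 20.2% and 24.5% of the whole lists. Whether the promoter counts differ between the lines was not tested. The nuclear co-activator BCL9 had the strongest, at -97 bp with 10.4-fold enrichment (92.1 percentile) and TGACA within 50 bp. TLE2 (8.73-fold), TLE4 (8.08-fold) and TLE3 (6.01-fold) had promoter peaks too, and TLE3 had 7 LV-MEIS1 peaks in all, 6 of them with the core. CSNK1A1 and GSK3A, kinases of the destruction complex, the R-spondin receptor LGR4 and the ubiquitin ligase MGRN1 completed the LV-MEIS1 promoters, with GSK3A (3.57-fold, 2.5 percentile) and LGR4 (3.48-fold, 2.1 percentile) near the bottom of the list. In knockout cells the promoter peak was that of SPOP, at -205 bp with 9.27-fold enrichment (89.9 percentile), while the LV-MEIS1 peak of SPOP lay in intron 1 at 522 bp (8.09-fold, 78.0 percentile). By role, 6 of 13 nuclear Wnt genes and 6 of 21 cytoplasmic Wnt genes had an LV-MEIS1 peak, and 3 and 2 a knockout peak. Of 9 planar polarity genes 1 had an LV-MEIS1 peak, and of 5 genes of Wnt secretion and 2 further Wnt ligands none had a peak in either list. Of 9 Wnt receptors or co-receptors and 8 extracellular inhibitors, 3 and 3 had an LV-MEIS1 peak, and 1 and 0 a knockout peak. For Hedgehog release, receptor and cytoplasmic genes the LV-MEIS1 counts were 2 of 6, 2 of 10 and 3 of 17. Their knockout counts were 0, 2 and 2. Over all protein-coding genes the shares were 15.1% in LV-MEIS1 and 5.79% in knockout cells. The groups are small, and their difference from these shares was not tested.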

How the data were processed

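MEIS1 ChIP-seq of LV-MEIS1 and HOXB13ko-LV-MEIS1 cells was analysed from 1 deposited peak list and 1 deposited annotation a line. According to the study's methods and the submitters' processing notes, reads were trimmed with Trimmomatic 0.38, aligned to hg38 with Bowtie2 and freed of duplicates with Picard 2.18.10. The authors called peaks on pooled immunoprecipitations with MACS2 2.1.2 at a q-value limit of 0.01 and read extension of 200 bp, and annotated them with HOMER 4.9.1. The deposited signal is the pileup at the summit, which MACS2 scaled to the input by 0.193 and 0.370. Fold enrichment, as deposited, divides the pileup by local background and is a ratio. The authors' p-value and q-value are given as −log10 values from a Poisson test. Another deposited column holds the distance from summit to the nearest start site in bp. The −log10 p and −log10 q columns carried a spreadsheet error as header and were read by their position in MACS2 output and by their values.

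Lists and annotations were joined by summit. The study's text gives a larger count of LV-MEIS1 peaks than the deposited list holds, and the list was used as deposited. Pileup and fold enrichment were scaled separately in each list, so fold enrichment was ranked within its own list. Peaks were shared when they overlapped by at least 1 bp. Background shares came from 20037 protein-coding genes of RefSeq, gene bodies and start sites from GENCODE release 44, and sequences from hg38. All 96 chromosome names of the lists were in that genome, with 0 summits outside it. Words were searched within 50 bp of summits. Shares have Wilson 95% intervals, which cover counting error only. With 1 list a line no test was run. The genes and lists were chosen with earlier results of these data known. Each of the 59 genes with a peak was named, and other pathway genes were named for peaks in both lists or a promoter peak. Peaks of these genes under another gene's name, and a few windows stated in the text, were named after their values were seen. The sequences at the LGR5 and FZD6 summits are not reported here. Alternatives were stricter q-values and fold enrichment, limits on distance, other overlaps, windows and gene margins, and peaks outside repeats. Counting of overlaps and words was tested on simulated sets. Python 3.11.15 was used with numpy 2.4.6, scipy 1.17.1, pandas 2.3.3 and matplotlib 3.10.9.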

Additional observations from a re-analysis of the deposited data

How the results depend on the processing

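Of 52 values computed under alternatives, 39 stayed close to the reported count or within the reported interval, and 13 moved. Counting only peaks within 10 kb of a start site left 3 genes and 3 peaks in LV-MEIS1 cells, 4 genes and 4 peaks in HOXB13ko-LV-MEIS1 cells, 0 genes in both lists, and 13 and 6 of the other pathway genes. With 3 and 4 genes left, the 0 in both lists does not set these genes apart. Without peaks in annotated repeats, an alternative chosen after seeing the data, 4 genes and 5 peaks were left in HOXB13ko-LV-MEIS1 cells and 0 genes in both lists, since WNT11 and SHH lost their LV-MEIS1 peak and ROR2 its knockout peak. The number of genes with a peak near the gene body was 8 in LV-MEIS1 cells and 6 in knockout cells with a margin of 10 kb, and 31 in LV-MEIS1 cells with a margin of 100 kb. The other rules for sharing could give no shared peak, since no peaks of these genes overlapped by 1 bp and the smallest distance between summits was 25410 bp. No paired analysis was possible because each line has 1 pooled list. Leaving out a replicate was not possible for the same reason. The input held fewer tags than either pool, which bounds how well local background is known, and in the shallower knockout pool an absent site cannot be told apart from a site under the limit of detection.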
